A study of Mus musculus with 10 samples.

Results

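The 7 genes described here, Nphs1, Podxl, Synpo, Wt1, Ptpro, Clic5 and Cdkn1c, are markers of the podocyte, the cell that wraps the capillaries of the kidney's filtering unit, the glomerulus. They were chosen by symbol, and all 7 were found among the 43629 genes of the count table. The data are read counts from kidneys of male UM-HET3 mice, a genetically mixed stock bred from several inbred strains. Control mice ate the plain diet. Treated mice ate it with 10 ppm of rilmenidine, a blood pressure drug acting on imidazoline receptors and alpha-2 adrenoceptors, starting at 3 months of age and lasting 1 month. All animals were killed at 4 months, and the controls were littermates, so that treatment was the labelled difference between the 6 control and the 4 rilmenidine kidneys. No gene was altered in either group, and each library came from the kidney tissue of 1 animal, in which podocytes are a small share of the cells. For these genes the comparison asks whether the levels differed between the groups, and the kidney-to-kidney values show how far the genes moved together, a measure of glomerular content.

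Podocytes send out interlocking foot processes, and the gap between neighbouring processes is bridged by the slit diaphragm, a sheet of membrane proteins that forms the last barrier of the filter. Nephrin, encoded by Nphs1, spans that gap. The slit proteins are tied to actin bundles in the foot process, which Synpo helps to order, while podocalyxin, encoded by Podxl, covers the upper membrane with negative charge and is tied to actin through ezrin. Loss of nephrin leads to protein in the urine. Wt1 is the transcription factor that drives many podocyte genes, and Cdkn1c encodes an inhibitor of the cell cycle kept by mature podocytes, which do not divide.

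None of the 7 genes was called different between rilmenidine and control kidneys. Nphs1 and Ptpro had too few reads to test. Of the 5 tested genes, 0 passed an adjusted p-value of 0.05 in edgeR's quasi-likelihood test and 0 an unadjusted p of 0.05, where 0% and 10.6% of all 10055 tested genes did. A log2 fold change below 0 was found for 4 of the 5 (49.7% of all tested genes), and Podxl was the exception, at 0.12. The values of both groups overlapped for all 7, and 1.67% of tested genes had groups that did not overlap. The genes moved together only weakly, with a median correlation of 0.20 over their 21 pairs. Several had few reads, and how far counting error lowered the correlations was not tested.

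The total depth was 863605 to 3232063 counts per library. Control totals had a median of 1489031 and rilmenidine totals a median of 2483263 (two-sided exact permutation p = 0.0571, 210 splits, smallest possible p 0.00476). A further 2 measures set libraries apart. The long noncoding RNA Malat1 stood at 1182 to 2100 CPM (normalized read counts, scaled to a common library total) in control kidneys 1, 3, 4 and 5, against 284 and 398 in control kidneys 6 and 2 and 306 to 393 in the rilmenidine kidneys (log2 fold change -1.73, adjusted p-value 0.211). The summed level of 1659 olfactory and vomeronasal receptor genes, which kidneys are not known to use at any high level, was highest in rilmenidine kidney 2, at 436 CPM, and lowest in rilmenidine kidney 3, at 4.27 CPM. The extraction notes speak of liver, although the labels name kidney. Albumin reads numbered 0 to 20 per library, while Umod, the uromodulin gene of the thick ascending limb, averaged 1076 ± 203 CPM in control kidneys (SD, n = 6). Ttr, the other tested gene of a list of liver markers, had 443 to 2191 reads per library. Its means were 553 ± 186 CPM in control (SD, n = 6) and 540 ± 162 CPM in rilmenidine kidneys (n = 4). The source of the Ttr reads was not tested.

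The promoter windows of the members with the fewest and the most reads, Nphs1 and Clic5, are shown as examples of the sequence around a RefSeq start. They are RefSeq sequences of build GRCm38.p6, 5′ to 3′, from 250 bases before to 50 after the start, and a window was held for 3 of the 7 members, the other being Ptpro. Capitals mark matches, on either strand, to GGGCGG (the core of the Sp1 motif), to GCGTGGG or GCGGGGGCG (motifs of the early growth response and Wt1 type) or to CCAAT.
Nphs1, chr7:30459808-30460107, plus strand: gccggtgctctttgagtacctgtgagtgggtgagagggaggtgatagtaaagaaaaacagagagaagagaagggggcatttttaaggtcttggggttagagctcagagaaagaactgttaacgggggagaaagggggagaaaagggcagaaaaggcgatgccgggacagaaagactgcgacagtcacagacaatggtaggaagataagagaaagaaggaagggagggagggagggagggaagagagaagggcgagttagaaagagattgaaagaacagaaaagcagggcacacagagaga
Clic5, chr17:44188322-44188621, plus strand: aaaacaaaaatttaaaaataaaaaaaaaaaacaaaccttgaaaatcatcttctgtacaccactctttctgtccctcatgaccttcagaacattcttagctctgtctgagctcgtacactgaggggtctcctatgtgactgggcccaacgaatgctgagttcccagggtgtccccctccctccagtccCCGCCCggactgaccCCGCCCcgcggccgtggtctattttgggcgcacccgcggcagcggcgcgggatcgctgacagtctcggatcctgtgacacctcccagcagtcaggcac
The Clic5 window runs across the start of the GENCODE gene, while the Nphs1 window lies wholly inside the GENCODE span of Nphs1, which starts further upstream. The Nphs1 window held no match to any of the 4 motifs and was unusual in composition. Purines made up 77.7% of its strand, against a median of 50.3% over 32841 mouse windows, and 12 windows (0.0365%) were as rich or richer. Its longest unbroken run of purines was 46 bases, against a median of 9. Clic5 held 2 matches to GGGCGG, both read on the other strand, and Ptpro held none of the motifs. Of all windows 35.7% held GGGCGG, 5.04% GCGTGGG, 2.91% GCGGGGGCG and 37.4% CCAAT. These matches describe the letters and were not tested for binding.

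Nephrin (Nphs1, ENSMUSG00000006649, mm10 chr7:30458315-30487223, plus strand) was at the edge of detection. Its reads numbered 1, 2, 0, 2, 4 and 1 in control kidneys 1 to 6, and 5, 4, 3 and 4 in rilmenidine kidneys 1 to 4. These are mean levels of 1.08 ± 0.818 CPM (SD, n = 6) and 1.84 ± 0.858 CPM (n = 4). The groups overlapped, and the 0 in control kidney 3 allows up to 3 counts, or 2.53 CPM. The counts scattered no more than counting error would make them, with a chi-square per degree of freedom of 0.972. Nphs1 reached 6 reads in no library, so it was left out of the test by the filter on low counts. When every gene with a read was kept, its log2 fold change was 0.70 ± 1.05 (SE), with an adjusted p-value of 0.872. Nphs1os, an antisense gene that overlaps it, had 0 counts in every library.

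Podocalyxin (Podxl, ENSMUSG00000025608, mm10 chr6:31519488-31563981, minus strand) was measured in every kidney with 45 to 148 reads. Its level was 36.0 CPM in the lowest control kidney, 46.5 in the median and 57.7 in the highest, and 55.7, 54.3, 50.7 and 43.4 CPM in rilmenidine kidneys 1 to 4. All 4 treated values lay within the control range. The means were 46.7 ± 7.47 (SD, n = 6) and 51.0 ± 5.49 CPM (n = 4). The log2 fold change, rilmenidine over control, was 0.12 ± 0.15 (SE), with a 95% interval of -0.20 to 0.44 and an adjusted p-value of 0.837. Podxl is also made by blood vessel endothelium, so its reads in a whole kidney are not from podocytes alone. In such bulk samples, fewer cells of a type and less RNA per cell cannot be told apart.

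Clic5, a chloride intracellular channel protein found with ezrin and podocalyxin at the foot process membrane, gave most of the reads of the 7 genes (ENSMUSG00000023959, mm10 chr17:44188584-44280172, plus strand). Control kidneys ranged from 156 to 250 CPM with a median of 207, and rilmenidine kidneys 1 to 4 held 152, 182, 177 and 209 CPM. Only rilmenidine kidney 4 exceeded the control median. Mean levels were 206 ± 31.0 (SD, n = 6) and 180 ± 23.4 CPM (n = 4). The log2 fold change was -0.19 ± 0.14 (SE; 95% interval -0.48 to 0.10, adjusted p-value 0.662). With log2 Malat1 as a covariate it was 0.0097, and the log2 levels of Clic5 and Malat1 over the 10 kidneys had r = 0.72 (permutation p = 0.0216, adjusted p 0.453 over 21 relations) and a Spearman's rho of 0.73 (permutation p = 0.0203). Without control kidneys 1 and 5, the farthest from the median of Malat1, r was 0.45. What part Malat1-rich libraries have in the Clic5 value was not tested.

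**Figure D1:**
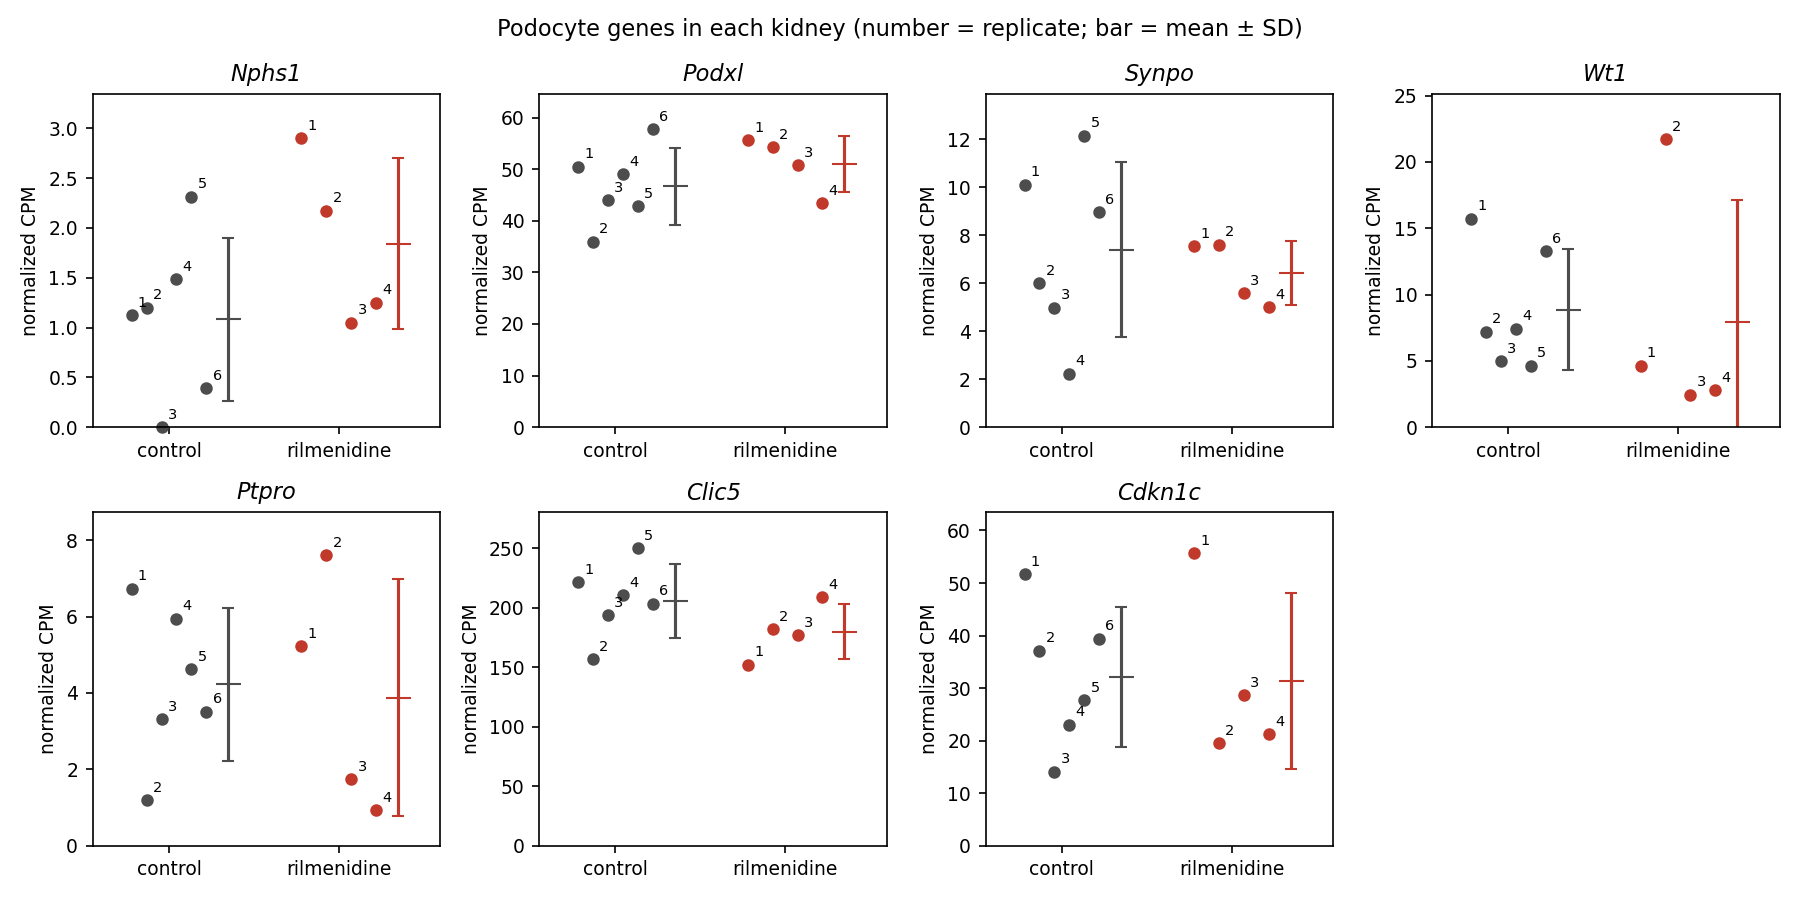
Normalized CPM (y axis, linear, from 0) of the 7 podocyte genes in each control (grey, n = 6) and rilmenidine (red, n = 4) kidney, numbered by replicate, with the mean and SD beside the points. In all panels the red points fall among or beside the grey ones, and the single high Wt1 point of rilmenidine kidney 2, at 21.7 CPM, stretches its group's SD bar past the axis at 0.

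Synaptopodin (Synpo, ENSMUSG00000043079), the actin-associated protein of foot processes, had 3 to 23 reads in control kidneys and 13, 14, 16 and 16 in rilmenidine kidneys. The control levels ran from 2.23 through a median of 7.48 to 12.1 CPM, and the treated levels were 7.54, 7.60, 5.60 and 5.00 CPM. The treated kidneys sat in the middle of the control range. Means were 7.40 ± 3.66 (SD, n = 6) and 6.43 ± 1.34 CPM (n = 4), and the log2 fold change was -0.25 ± 0.37 (SE; 95% interval -1.04 to 0.54, adjusted p-value 0.874).

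Ptpro encodes a receptor-type tyrosine phosphatase of the upper foot process membrane (ENSMUSG00000030223, mm10 chr6:137252319-137463233, plus strand). It had 2 to 9 reads per control kidney and 9, 14, 5 and 3 in the rilmenidine kidneys, and reached 6 reads in 6 of 10 libraries, short of the filter. Levels were 1.20 to 6.73 CPM in control kidneys, median 4.07, and 5.22, 7.60, 1.75 and 0.937 CPM in rilmenidine kidneys 1 to 4. The treated kidneys held both the highest and the lowest value of the 10. Means were 4.22 ± 2.00 (SD, n = 6) and 3.88 ± 3.10 CPM (n = 4), and without the filter the log2 fold change was -0.16 ± 0.58 (SE, adjusted p-value 0.966).

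Wt1, the zinc finger transcription factor (ENSMUSG00000016458, mm10 chr2:105126529-105173616, plus strand), was led by 1 library. Reads numbered 8, 40, 7 and 9 in rilmenidine kidneys 1 to 4, or 4.64, 21.7, 2.45 and 2.81 CPM. Control kidneys held 4.63 to 15.7 CPM with a median of 7.31. Rilmenidine kidney 2 was above every control kidney, kidney 1 was level with the lowest control, and kidneys 3 and 4 were below all controls. The means were 8.87 ± 4.56 (SD, n = 6) and 7.90 ± 9.26 CPM (n = 4). The log2 fold change was -0.24 ± 0.56 (SE; 95% interval -1.42 to 0.93, adjusted p-value 0.927). Without rilmenidine kidney 2 it was -1.46 (unadjusted p 0.00502, adjusted p-value 0.253). The same kidney held the most receptor gene reads, 436 CPM, whose part in the Wt1 value was not tested. Over the 10 kidneys Wt1 and the log2 receptor level had r = 0.47 (permutation p = 0.169) and a Spearman's rho of 0.48 (permutation p = 0.165). Without rilmenidine kidneys 3 and 4, the farthest from the median receptor level, r was -0.035.

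Cdkn1c, an imprinted cell cycle inhibitor (ENSMUSG00000037664, mm10 chr7:143458339-143461050, minus strand), spanned a wide range in both groups. Control kidneys held 14.1 to 51.6 CPM with a median of 32.5, and rilmenidine kidneys 1 to 4 held 55.7, 19.5, 28.7 and 21.2 CPM. Rilmenidine kidney 1 and control kidney 1 were the highest, and control kidney 3 was the lowest. Means were 32.2 ± 13.3 (SD, n = 6) and 31.3 ± 16.7 CPM (n = 4). The log2 fold change was -0.06 ± 0.32 (SE; 95% interval -0.73 to 0.61, adjusted p-value 0.973).

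Across the 5 tested genes the median log2 fold change was -0.19, against 0.0021 over all 10055 tested genes. Podxl and Clic5 had the narrowest intervals. A change of 0.5 on the log2 scale in either direction lay outside both of them and inside those of Synpo, Wt1 and Cdkn1c. The directions of these 3 genes were not stable. In the 7 libraries at 10 receptor CPM or more, their log2 fold changes were 0.09, 0.80 and 0.31, and the median of the 5 genes was 0.31, a choice of libraries made after seeing the data.

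How the genes scattered between kidneys differed from gene to gene. Counting error alone would give a coefficient of variation of 5.56% for Clic5 and 13.8% for Cdkn1c, where the spread within groups was 14.5% and 46.1%. For Wt1 the same figures were 26.7% and 79.2%. By contrast Nphs1 (66.0% against 60.0%) and Podxl (11.2% against 14.0%) stood close to counting error. The summed level of all 7 genes was 245 to 357 CPM in control kidneys and 267 to 295 CPM in rilmenidine kidneys (306 ± 44.5, n = 6, and 282 ± 11.5, n = 4, SD). Clic5 alone gave 53.6% to 73.7% of the 7 genes' reads in a kidney, with no correction for length, so the sum mostly followed Clic5.

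How far the 7 genes rose and fell together was read from their pairs. Over the 21 pairs the correlation of log2 CPM ranged from -0.24 (Clic5 with Cdkn1c) to 0.65 (Wt1 with Ptpro), and 18 pairs were above 0. All 5 tested members together gave a median of 0.185, against -0.0017 over all pairs of tested genes, whose lower and upper quartiles were -0.277 and 0.277. The other podocyte lists had medians of 0.12 (slit diaphragm), 0.05 (actin), -0.10 (transcription), 0.02 (matrix and adhesion) and -0.08 (signalling). Mesangial and juxtaglomerular genes had a median of 0.0014 and 15 endothelial genes 0.213, while 8 immune genes had 0.544 and 4 globin genes 0.973. Agreement above that of the members was also found outside the glomerulus, at 0.268 over 5 thick ascending limb genes, 0.34 over 5 distal convoluted tubule genes and 0.558 over 7 mitochondrially encoded genes. Wt1 with Ptpro was the one pair at an unadjusted p under 0.05 (n = 10, r = 0.65, permutation p = 0.0443, adjusted p 0.786; Spearman's rho 0.70, permutation p = 0.0305, adjusted p 0.640). Rilmenidine kidney 2 and control kidney 1 were the highest of the 10 for both genes, and without the 2 kidneys farthest from the median of Wt1 r was 0.38. None of the 21 pairs passed adjustment. Reads per kidney were few for Nphs1 (0 to 5), Ptpro (2 to 14) and Synpo (3 to 23). Counting error alone would give them coefficients of variation of 66.0%, 38.5% and 29.4%. How far this lowered their correlations was not tested. With the group means subtracted the median was 0.199, and it lay between 0.124 (without control kidney 1) and 0.296 (without control kidney 4) when single kidneys were left out.

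**Figure D2:**
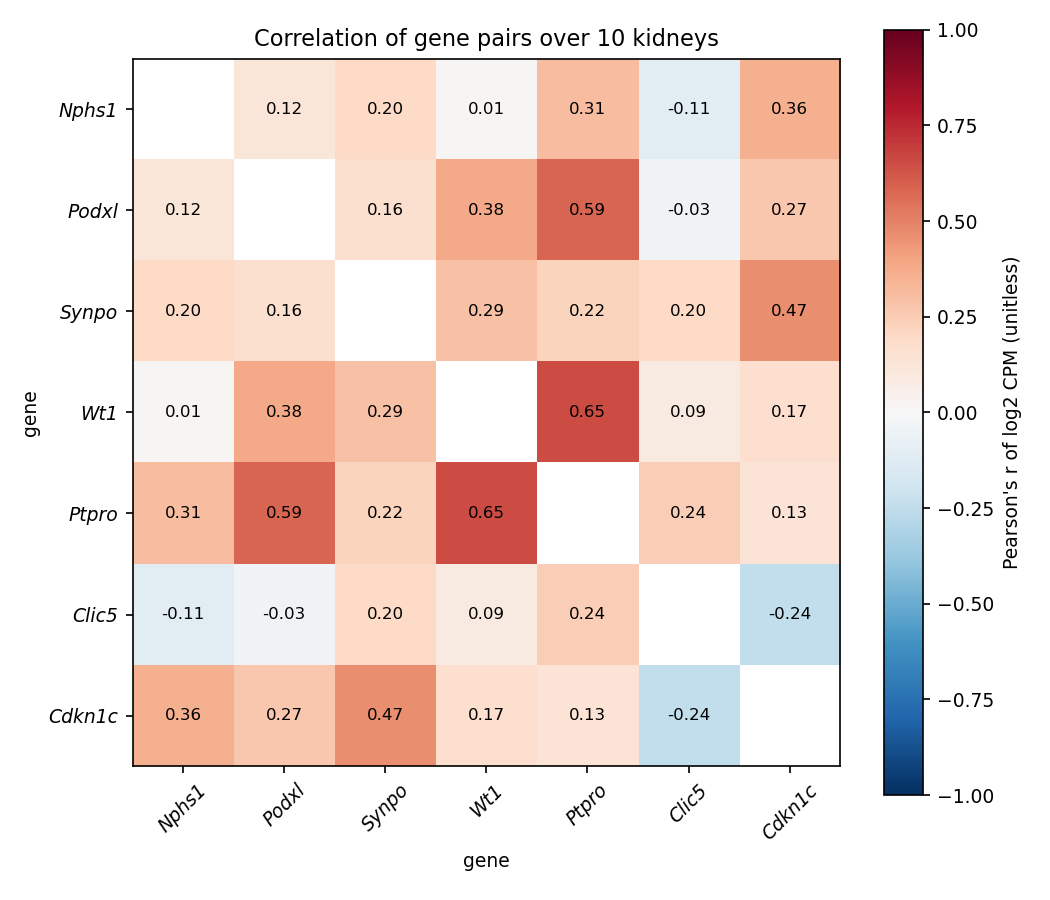
Pearson's r of log2 CPM over 10 kidneys for each pair of the 7 podocyte genes (colour scale from -1 to 1, unitless). Most squares are pale, 18 of the 21 pairs are above 0, and the values run from -0.24 (Clic5 with Cdkn1c) to 0.65 (Wt1 with Ptpro), the darkest.

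The libraries' own properties were set beside the 7 genes in 21 relations, a family added after the counts had been seen. None passed adjustment. Podxl against log2 Malat1 had a Spearman's rho of -0.66 (permutation p = 0.0431, adjusted p 0.453), opposite in sign to that of Clic5, and r = -0.28 (permutation p = 0.435). Ptpro against log2 total counts had r = -0.62 (permutation p = 0.0583, adjusted p 0.612), a Spearman's rho of -0.47 (permutation p = 0.179) and r = -0.35 without control kidney 1 and rilmenidine kidney 4, with the 2 deepest, rilmenidine kidneys 4 and 3, holding 0.937 and 1.75 CPM.

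Genes with the pattern most like the 5 tested members were found by correlating each tested gene with the members' mean standardized log2 CPM over the 10 kidneys, a score that was highest in control kidneys 1 and 6 and lowest in control kidneys 3 and 2. The 10 most alike were Esf1 (r = 0.95), Kdm4a (0.95), Zfp691 (0.91), Flot1 (0.90), Msn (0.88), Tmem220 (0.88), Gosr2 (0.85), Orai3 (0.85), Mtm1 (0.85) and Zfp532 (0.84). They are the extremes of 10050 genes over 10 points, and none stands in the podocyte or other cell type lists. Msn encodes moesin, a relative of ezrin. In the lists, Myo1e, a myosin of the foot process, had r = 0.75 and Lmx1b, a podocyte transcription factor, 0.73. The endothelial genes Plat (0.70), Flt1 (0.69) and Eng (0.68) and the mesangial Pdgfrb (0.70) followed. Pdgfrb was the highest of 11 mesangial and juxtaglomerular genes, whose median r was -0.0265. Of these 11, 5 had an r above 0, 1 lay in the top 5% of all genes, and Serpine2 was the lowest at -0.605. Of 15 endothelial genes 4 lay in the top 5% of all genes, as did 2 of 10 slit diaphragm genes, 1 of 9 collecting duct genes, 1 of 7 mitochondrially encoded genes (mt-Co3, r = 0.70) and 0 of 13 proximal tubule genes. Control kidney 3, with low member values, also had the lowest summed level of the endothelial list, 339 CPM, where the other 9 kidneys held 452 to 552 CPM. Control kidney 2, with the lowest summed level of the 7 genes, had the second highest endothelial sum, 525 CPM.

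The rest of the podocyte program was read from 5 lists of 73 genes. In all, 58 were tested, 39 had a log2 fold change below 0 and 19 above, and 0 passed the adjusted threshold. At an unadjusted p under 0.05, 1 was higher and 8 were lower (13.8% of the 58), against 4.43% higher and 6.13% lower among all tested genes. The 8 were Cdkn1b, Vegfa, Tead1, Col4a3, Col4a4, Rhpn1, Myh9 and Palld, and the other was Foxc1.

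Among 10 tested slit diaphragm genes, log2 fold changes ran from -0.27 (Fat1, a giant cadherin) to 0.24 (Pard6b, a polarity protein), with a median of -0.03 and 0 at an unadjusted p under 0.05. The 15 tested actin genes had a median of -0.06 and ran from -1.13 for Rhpn1 (7.43 ± 2.14 against 3.43 ± 2.09 CPM, adjusted p-value 0.327), to 0.54 for the intermediate filament gene Nes. Of 7 tested transcription factors, Tead1 was at -0.60 (106 ± 25.7 against 69.4 ± 13.2 CPM, adjusted p-value 0.286) and Foxc1 at 0.86 (6.69 ± 1.90 against 11.9 ± 4.47 CPM, adjusted p-value 0.339).

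Matrix and adhesion genes had the lowest median of the 5 lists, -0.16 over 13 genes. Col4a3 and Col4a4, chains of the collagen network that podocytes lay down in the basement membrane, were at -0.92 and -0.64, with adjusted p-values of 0.303 and 0.316. Col4a3 was 45.8 ± 19.9 CPM in control and 23.7 ± 5.38 CPM in rilmenidine kidneys. In the signalling list, Vegfa, which podocytes supply to the glomerular endothelium, was at -0.70 (119 ± 33.3 against 73.5 ± 9.77 CPM, adjusted p-value 0.244). Cdkn1b, the relative of Cdkn1c, had the smallest p-value of the 5 lists, with 78.5 to 118 CPM in control kidneys and 58.0, 86.3, 60.5 and 50.0 CPM in rilmenidine kidneys 1 to 4. Rilmenidine kidney 2 lay above control kidney 2, the lowest control, so the groups overlapped (log2 fold change -0.72 ± 0.17, SE, adjusted p-value 0.209). Plce1, the phospholipase of early podocyte development, had the highest value of that list, 0.68 (adjusted p-value 0.738).

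**Figure D3:**
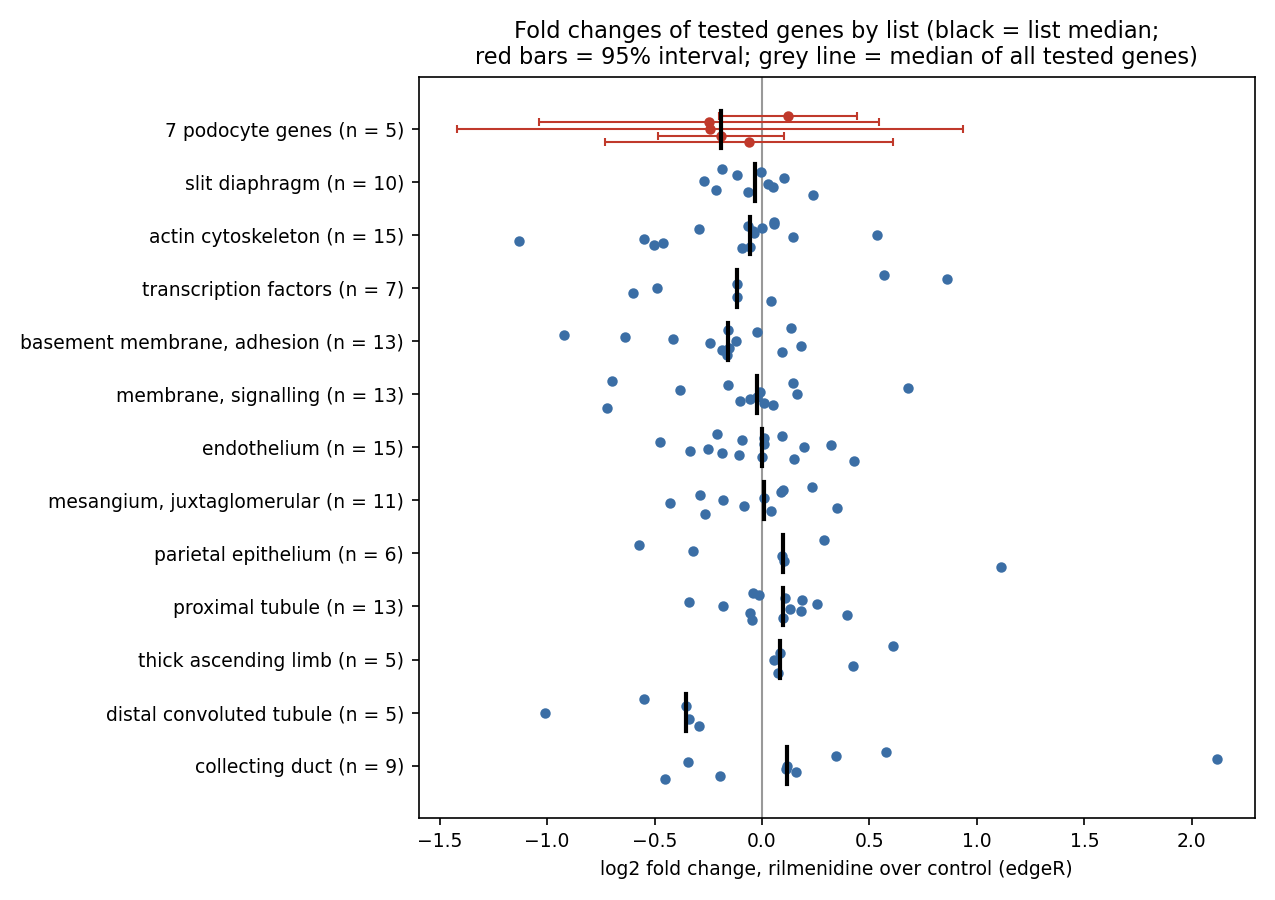
Log2 fold change, rilmenidine over control (x axis, edgeR), of the tested genes of each list (rows, n genes each), with list medians as black bars, the median of all tested genes as a grey line, and 95% intervals for the 5 tested members in red. All 5 red intervals cross 0, the median of the members is -0.19, those of the 5 other podocyte lists lie between -0.16 and -0.02, all on the left of the line, and single genes such as Rhpn1 (-1.13) and Foxc1 (0.86) lie far from their medians.

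Measures of the libraries moved with these values. Col4a3 was 43.1 to 75.2 CPM in the 4 Malat1-rich control kidneys and 17.9 and 31.8 CPM in control kidneys 6 and 2, the latter pair lying near the rilmenidine range of 18.6 to 29.9. With log2 Malat1 as a covariate, 1 of the 58 genes was lower and 2 higher at an unadjusted p under 0.05, and with log2 library size 1 was lower and 1 higher. The numbers over all 10055 tested genes fell as well, from 616 lower and 445 higher to 161 and 150 with Malat1 and to 214 and 218 with library size, so the smaller count is not particular to the podocyte lists. The part of Malat1 and of depth in the list values was not tested beyond these fits.

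The other cells of the glomerulus gave no called gene either. Endothelial genes had a median log2 fold change of -0.0018 over 15 genes, from -0.47 for Plat to 0.43 for Esam. Esam was the 1 gene of this list at an unadjusted p under 0.05 (adjusted p-value 0.455). Both Kdr and Pecam1 were at 0.01 (60.8 ± 13.8 and 17.9 ± 4.38 CPM in control, 61.8 ± 11.6 and 18.3 ± 3.69 CPM in rilmenidine kidneys). The mesangial and juxtaglomerular list had a median of 0.0079 over 11 genes, with Pdgfrb at 0.23 and Ren1, the renin gene, at -0.29. The parietal epithelium list had 0.10 over 6 genes, led by Krt18 at 1.11 (adjusted p-value 0.285). By summed level the endothelial list held 482 ± 74.9 CPM in control (SD, n = 6) and 477 ± 25.1 CPM in rilmenidine kidneys (n = 4). Among the tubule lists, 13 proximal tubule genes had a median of 0.10 and 5 distal convoluted tubule genes one of -0.35, and the thick ascending limb, collecting duct and immune lists had medians of 0.08, 0.11 and 0.27, again with none called. At an unadjusted p under 0.05, 3 of the 5 distal convoluted tubule genes were lower (Slc12a3, Trpm6 and Wnk4), and 2 of 5 thick ascending limb genes (Umod and Egf) and 3 of 9 collecting duct genes (Aqp2, Aqp3 and Aqp4) were higher. What part the makeup of the tissue samples has in the podocyte values was not tested.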

How the data were processed

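RNA from 10 mouse kidneys, 6 control and 4 rilmenidine, was made into 3′-end libraries after the labels' CEL-Seq2 reference. The authors deposited raw counts of reads per Ensembl gene. Per the labels, reads were processed with bcl2fastq 1.8.4, Trimmomatic 0.32, STAR 2.5.2b and featureCounts 1.5 on mm10. The annotation, the strand setting and the use of molecular identifiers are not given in the sources used here, so counts may include duplicate reads and overlapping genes cannot be separated by strand. The supplementary methods give 8 control kidneys, and the labels 6.

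A gene was kept when 66.6% or more of the libraries held 6 or more of its reads, which left 10055 of 43629. The quasi-likelihood test of edgeR 4.0.16 (R 4.3.3) was run on RLE-scaled counts with treatment as its one term, and p-values were adjusted over all kept genes by Benjamini-Hochberg (threshold 0.05). Normalized CPM were taken from these counts, and logarithms used a prior count of 2. Correlations are Pearson's r with two-sided permutation tests (100000 pairings). Symbols and coordinates came from GENCODE M21. The 7 members and the lists were chosen with earlier results of these data known. All 7 members are named, with the 2 extremes of each list, a set of defining genes, the 10 most alike genes and, chosen after their values were seen, the list genes at an unadjusted p under 0.05 and the list genes most like the members. A few named by this rule are left out. Depth was 863605 to 3232063 counts per library, and intervals and limits cover counting error and the spread between these kidneys only. On simulated data the test recovered 107 of 194 genes changed by 1 on the log2 scale (55.2%, 2 false calls) and 168 of 186 changed by 1.5 (90.3%, 7 false calls), with 0 calls of 9806 genes without change. The changed genes were drawn at random from all kept genes, so these rates are averages and not those of the members. Counts were drawn independently for each gene, without the Malat1 or receptor differences between libraries. The alternatives were TMM, 2 other filters, DESeq2 1.42.0, the likelihood ratio test, a covariate for library size or Malat1, a replicate block and the omission of each kidney. Receptor gene level as a covariate, the 7 libraries at 10 receptor CPM or more, the 5 tested members alone and log2 totals were added after seeing the data.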

Additional observations from a re-analysis of the deposited data

Results flagged for a closer look

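Wt1 in the rilmenidine kidneys was the one result that stood apart among 14 groups of kidneys examined for a single distant sample, where chance gives about 5% for each group. The highest value, 21.7 CPM in rilmenidine kidney 2, was far from the other 3, at 2.45, 2.81 and 4.64 CPM. In the same kidney Ptpro was the highest of the group, at 7.60 CPM, and Synpo also, at 7.60 CPM against 7.54 CPM in rilmenidine kidney 1. So was the level of the olfactory and vomeronasal receptor genes, at 436 CPM, whose part in the Wt1 value was not tested. Nphs1 (2.17 CPM), Podxl (54.3 CPM), Clic5 (182 CPM) and Cdkn1c (19.5 CPM) were not the highest of the group there.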

How the results depend on the processing

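Of the 20 alternatives run, no member was called in any that tested it. Podxl, Clic5 and Cdkn1c were tested in all 20, Synpo and Wt1 in 19, Ptpro in 6 and Nphs1 in 1. DESeq2 gave no adjusted p-value for Synpo and Wt1. Podxl kept its direction in all 20. The number of genes called, 0, with 1061 at an unadjusted p under 0.05, was 241 when every gene with a read was kept, 60 by DESeq2, 44 by the likelihood ratio test and 3 with the replicate block, and 0 to 37 when single kidneys were left out (37 without control kidney 6, 33 without control kidney 2 and 6 without rilmenidine kidney 1). The cause was not tested. Of the podocyte lists, Cdkn1b was called by DESeq2, by the likelihood ratio test and without control kidney 2, and Cdkn1b, Col4a3, Col4a4, Tead1 and Vegfa when every gene with a read was kept.

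The members' median log2 fold change, -0.19, was 0.308 in the 7 libraries at 10 receptor CPM or more, and -0.260 to 0.0766 when single kidneys were left out, above 0 without rilmenidine kidney 4. It was 0.0710 with library size as covariate, which turns its sign, -0.0111 with the replicate block and -0.0644 with the filter of 10 counts in every library. Directions turned for Wt1 (0.0754) and Cdkn1c (0.0710) with library size as covariate, for Clic5 (0.0097) with Malat1, for Synpo (0.25) with the replicate block, and within the 7 libraries for Synpo (0.0900), Wt1 (0.803) and Cdkn1c (0.308). Leaving out single kidneys gave -1.46 to 0.0844 for Wt1 and -0.459 to 0.0993 for Cdkn1c, -0.423 to -0.034 for Synpo (-0.25 with all kidneys, nearest to 0 without control kidney 5), 0.052 to 0.203 for Podxl (0.12 with all kidneys, lowest without control kidney 2 and highest without control kidney 6) and -0.271 to -0.120 for Clic5 (-0.19 with all kidneys, nearest to 0 without rilmenidine kidney 1). Replicate numbers did not pair the kidneys (r of same-numbered deviations -0.0768 to 0.0775 over 4 numbers), and the block changed no member's call. Depth limits Nphs1 and Ptpro most, with 0 to 5 and 2 to 14 reads per kidney.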

Other observations

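Plce1 and Wt1 shared their highest kidneys, a pattern chosen after the values were seen. Plce1 was 25.0 CPM in rilmenidine kidney 2 and 15.7 CPM in control kidney 1, and 2.23 to 10.4 CPM in the other 8 kidneys. Wt1 was 21.7 and 15.7 CPM in the same 2 kidneys and 2.45 to 13.3 CPM in the other 8. Nes, an intermediate filament gene of the podocyte, was at 10.8 ± 1.70 CPM in rilmenidine kidneys (SD, n = 4) against 7.13 ± 2.48 CPM in control kidneys (n = 6), with an adjusted p-value of 0.528.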
